A study of Rattus norvegicus with 4 samples.

Results

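Small RNAs recovered with Piwil2 from the CA1 field of the rat hippocampus were compared between a library named tGCI26h, from animals with transient global cerebral ischemia at 26 h, and a library from Sham animals. Members are the sequences of the deposited raw tag table that had at least 10 tags in either library, which holds for 1366 of the 2285 sequences listed in Sham or tGCI26h and of the 3129 in the whole table. The study profiled 4 libraries by RNA immunoprecipitation followed by small RNA sequencing: Sham, tGCI26h, a library named HPC0h (0 h) and an IgG control. All animals were male Wistar rats aged 7 to 8 weeks, and the sources used here name no transgene, drug or other allele. The design text speaks of 3 replicates a group, but 1 library per group was analysed here, and whether animals were pooled is not stated. Table columns were matched to Sham and tGCI26h by partial names, the first letter for Sham and the time for tGCI26h, so the direction of each difference rests on that match.

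PIWI proteins are germline-enriched relatives of the Argonaute proteins, and they bind piRNAs, which guide them to transposon transcripts. Piwil2 (MILI in the mouse) is best known from male germ cells, where its piRNAs are shorter than the tags most abundant here and often begin with U. CA1 pyramidal neurons are among the neurons most sensitive to transient global ischemia and die days after it. Abundant housekeeping RNAs (rRNA, tRNA, spliceosomal snRNA, Y RNA) also give short fragments, and cleavage of tRNAs in the anticodon loop, which yields 5′ and 3′ tRNA fragments, is a known response of stressed cells.

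The listed sequences summed to 159215 tags in Sham and 222511 in tGCI26h, and each value below is a share of these totals. The ratio of shares, tGCI26h over Sham, is given with its exact 95% interval (Clopper-Pearson), which covers counting error only, because the tags carry no molecular identifiers and no replicate was available. A sequence was called higher or lower where its ratio was at least 2 or at most 0.5 and its interval excluded 1. No p-value is given, and differences are between 2 libraries. In tissue, fewer cells of a type and less RNA per cell cannot be told apart. A blank cell was taken as 0 tags and is described as not listed; the smallest listed count was 2.

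Listed counts were not independent of each other. In all 11568 pairs in which a listed sequence lay whole inside a longer one, the longer one had at least as many tags in every library where the shorter was listed, including 3111 such pairs in Sham and 4875 in tGCI26h, with 0 exceptions in each. A listed count therefore held the tags of the shorter listed sequences inside it. Of the measured sequences, 1208 were in such a pair and 627 lay inside a longer one. Sums over an RNA, and the totals, count those tags more than once, and intervals of sums are too narrow. For this reason single sequences lead the account below. Class values are also given over a non-overlapping set, in which no pair of sequences shares 20 bases; it held 302 listed and 215 measured sequences with 69747 tags in Sham and 94212 in tGCI26h, and its choice was made after the data were seen.

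The sequences that carry the largest contrasts are shown here, as DNA letters from the deposited table, 5′ to 3′. RNA names were given from general knowledge and are provisional, apart from let-7b, which matched rno-let-7b-5p of RefSeq (GRCr8). Several of them lie outside the naming rule and were chosen after their values were seen: novel_11728, novel_3541 and novel_9449 among the snRNA fragments, the tRNA-Lys fragment rno_piR_005595, the tRNA-Asp fragment novel_19801, the mitochondrial tRNA-Leu fragment, the BC1 fragment and let-7b. Fragments of U2 and U1 snRNA and of tRNA-Asp differ by where they stop, so their last 6 bases are in capitals.
novel_5060_x368: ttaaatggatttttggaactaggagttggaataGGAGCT
novel_11728_x168: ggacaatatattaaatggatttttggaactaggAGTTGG
novel_3541_x521: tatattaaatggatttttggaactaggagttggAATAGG
novel_426_x3250: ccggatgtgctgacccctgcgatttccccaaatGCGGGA
novel_9449_x204: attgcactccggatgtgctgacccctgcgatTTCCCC
novel_19801_x107: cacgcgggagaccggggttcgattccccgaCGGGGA
novel_9909_x195: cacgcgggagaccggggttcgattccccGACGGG
novel_7169_x265: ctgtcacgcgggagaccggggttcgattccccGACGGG
Fragments of the 5′ part of cytosolic tRNAs, which differ between tRNAs of one length class, and fragments of mitochondrial tRNA-Gln and tRNA-Leu follow, with no letters in capitals.
rno_piR_005567: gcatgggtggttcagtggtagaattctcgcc
novel_12093_x163: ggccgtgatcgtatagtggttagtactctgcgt
novel_2845_x640: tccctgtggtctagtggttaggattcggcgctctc
rno_piR_005598: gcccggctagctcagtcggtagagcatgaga
rno_piR_005595: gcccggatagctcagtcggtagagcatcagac
novel_1504_x1146: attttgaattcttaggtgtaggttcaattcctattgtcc
novel_20487_x104: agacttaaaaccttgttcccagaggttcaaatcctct
The rRNA fragments are the 28S sequence with most tags in both libraries, a second 28S sequence that differed from it, and neighbouring 18S sequences that went opposite ways.
novel_88_x12235: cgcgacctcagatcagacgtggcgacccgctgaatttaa
novel_14_x71274: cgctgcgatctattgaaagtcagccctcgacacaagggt
novel_3177_x580: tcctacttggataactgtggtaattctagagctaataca
novel_2167_x831: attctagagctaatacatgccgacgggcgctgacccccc
The last set holds small noncoding RNAs of the cytoplasm and nucleus and the miRNA let-7b, whose seed (bases 2 to 8) is in capitals.
novel_9037_x213: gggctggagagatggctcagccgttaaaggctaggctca
novel_11388_x172: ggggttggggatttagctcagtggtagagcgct
novel_14710_x137: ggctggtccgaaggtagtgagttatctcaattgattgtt
novel_4906_x381: tGAGGTAGtaggttgtgtggt

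Most fragments of the spliceosomal snRNAs U2 and U1 were lower in the tGCI26h library, many of them far lower, while a few tRNA fragments, BC1 RNA, 4.5SI RNA and many 18S rRNA fragments were higher. A low U2 share was not seen in tGCI26h alone. U2 made up 0.355% of tGCI26h tags, 0.305% in HPC0h and 0.642% in IgG, against 6.86% in Sham. Of the 1366 measured sequences, 372 (27.2%) were higher and 190 (13.9%) lower in tGCI26h than in Sham. Those shares are the background against which the counts for each RNA are read. The median ratio was 1.23 over the 1240 measured sequences listed in both libraries, and the interval held 1 for 632 sequences. In the non-overlapping set 61 of 215 (28.4%) were higher and 30 (14%) lower. Of the 10 sequences with most tags in each library 9 were the same, but a U2 fragment, a tRNA-Gly fragment and a 28S fragment among the most abundant were called, as described below. The sequence with most tags, novel_88_x12235 of the 28S 5′ end, had 20894 Sham tags and 28657 tGCI26h tags, a ratio of 0.98 (0.96 to 1.00). Scaling by edgeR's TMM factors would lower every log2 ratio by a shift of -0.21, which leaves the order of the sequences as it is.

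**Figure D1:**
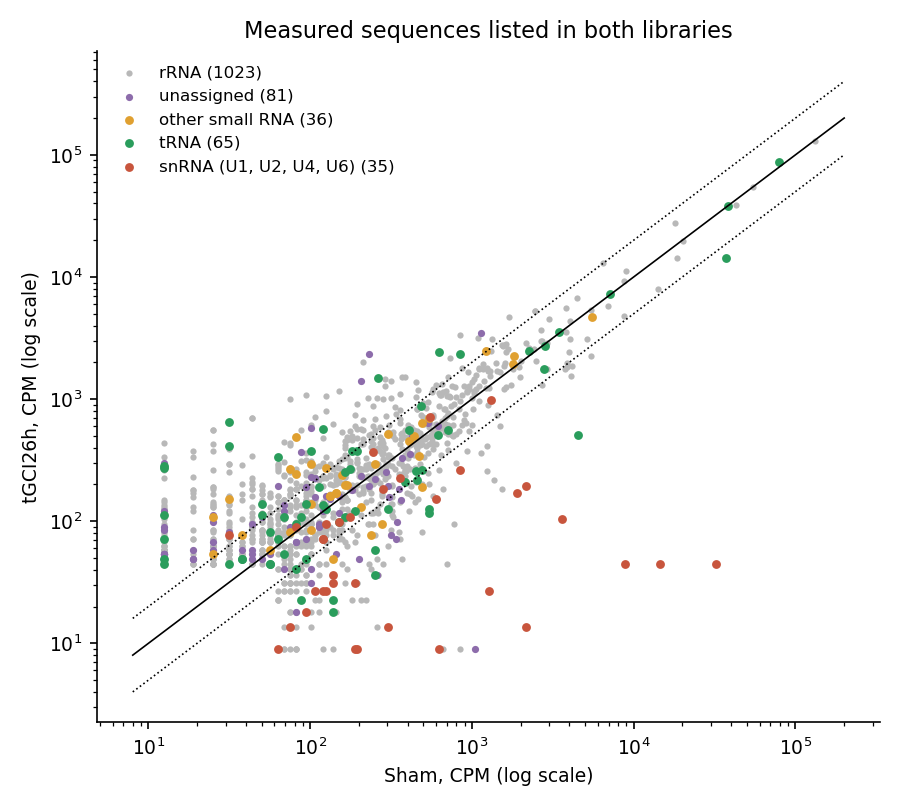
Level of each of the 1240 measured sequences listed in both libraries, as CPM (tags scaled to a common library total), Sham on the x axis and tGCI26h on the y axis (both log scale), coloured by RNA with the number of sequences in brackets. The solid line marks equal shares and the dotted lines a ratio of 2 either way; many U2 and U1 snRNA fragments (red) sit far below the lines while 9 of 25 U2 and 2 of 8 U1 fragments were not called, and the most abundant rRNA and tRNA-Glu fragments lie on the diagonal.

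U2 snRNA, the spliceosome component that pairs with the branch point of introns, gave the largest difference. The 39-nt fragment novel_5060_x368 had 5131 tags in Sham and 10 in tGCI26h, which is 717-fold lower (95% interval 390 to 1496). It was the U2 sequence with most tags in Sham, and HPC0h and IgG listed it with 265 and 557 tags from larger totals. A fragment that starts 10 bases further upstream and stops 10 bases earlier, novel_11728_x168, had 209 Sham tags and 217 tGCI26h tags, a ratio of 0.74 (0.61 to 0.90). Another, novel_3541_x521, which stops 4 bases earlier, had 88 and 159 tags, a ratio of 1.29 (0.99 to 1.70). In IgG novel_3541_x521 stood at 883.6 CPM, above 552.7 in Sham and 714.6 in tGCI26h. For novel_11728_x168 IgG had 497.9 CPM, below 1312.7 in Sham and 975.2 in tGCI26h. The ratio of novel_11728_x168 exceeded that of novel_5060_x368 530-fold (277 to 1139). The difference was thus not shared by all U2 fragments of the same stretch, which differ in where they start and stop.

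Of the 29 measured U2 sequences, 20 were lower, 0 were higher and the rest were neither. Apart from the fragment end above, novel_17277_x119, stopping 13 bases earlier, had 343 Sham tags and 43 tGCI26h tags, 11.2-fold lower (8.10 to 15.7). Its neighbour novel_3828_x484, stopping 9 bases earlier, was 3.25-fold lower (2.37 to 4.51), with 135 and 58 tags. From the 3′ part of U2, novel_9040_x213 had 100 Sham tags and 2 tGCI26h tags, a fold of 69.9 (18.9 to 585). The 39-nt fragment first named, at 717-fold, thus had the largest fold of the U2 fragments given here. Summed by 3′ end, with nested tags counted more than once, sequences with the end of novel_5060_x368 had 9300 tags in Sham and 33 in tGCI26h, and those with other ends 1425 and 706, a ratio of ratios of 139.5 (97.9 to 205). Over all sequences U2 had 10925 tags in Sham and 790 in tGCI26h, which is 19.3-fold lower (18 to 20.8). Over the non-overlapping set it had 5295 and 69, of which novel_5060_x368 gave 5131 and 10. That set leaves out novel_11728_x168 and novel_3541_x521, which overlap it.

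The fragments with that end form a nested series, so the tags of each start can be read by difference. In Sham, 2803 of the 5131 tags were held by the 39-nt sequence and by no shorter one, 926 reached the 38-nt, 1060 the 37-nt, 245 the 36-nt and 97 the 35-nt sequence. In tGCI26h the same series gave 0, 0, 7, 3 and 0 tags. Sham tags thus began mostly at the first base of novel_5060_x368, and the few tGCI26h tags with this end began 2 or 3 bases later.

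**Figure D2:**
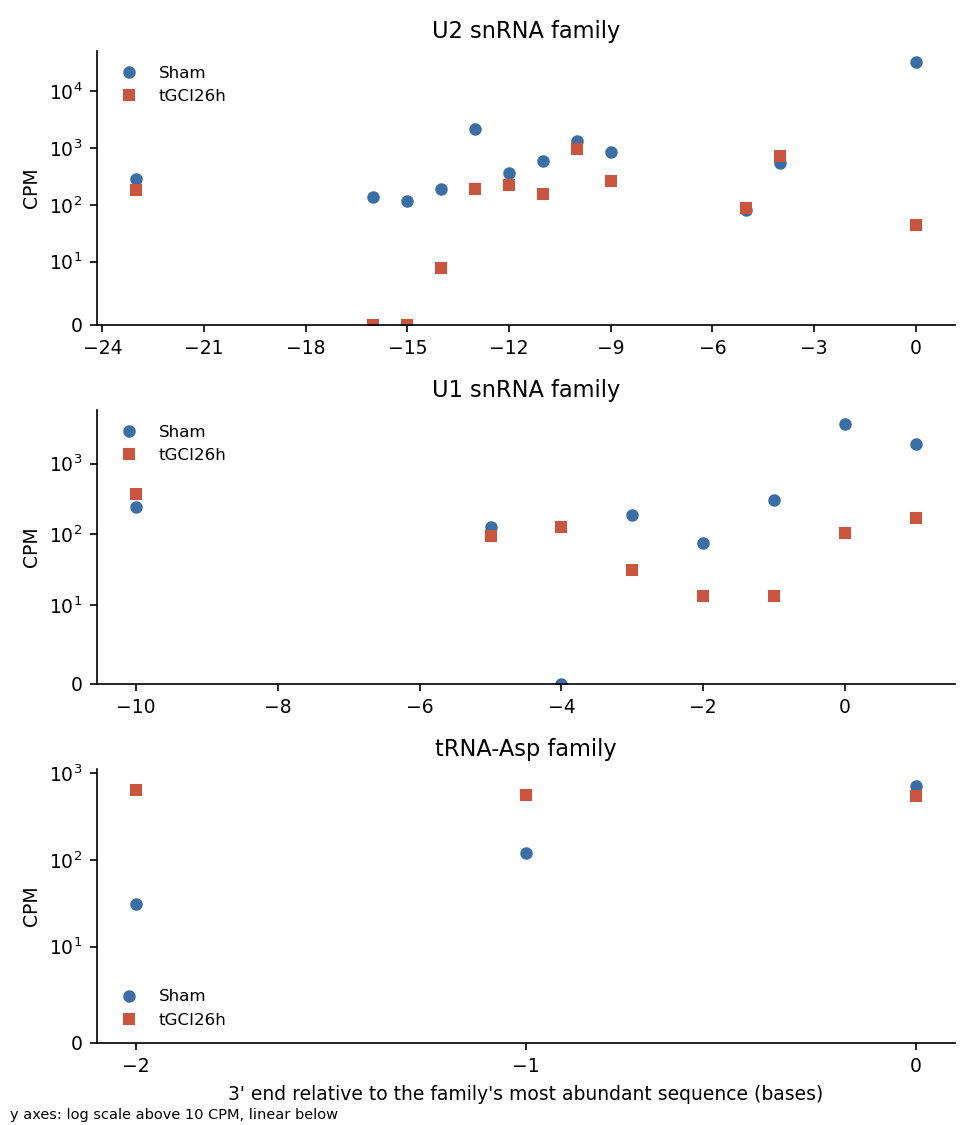
Level, as CPM, of the sequence with most tags at each 3′ end in the U2, U1 and tRNA-Asp families, against the position of that end relative to the family's most abundant sequence (0), with Sham as blue circles and tGCI26h as red squares. At position 0 of U2 Sham stands at 32226.9 CPM and tGCI26h at 44.94 CPM, whereas at positions -10 and -4 the symbols nearly meet. In tRNA-Asp the libraries separate at -2 and -1 and nearly meet at 0.

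**Figure D3:**
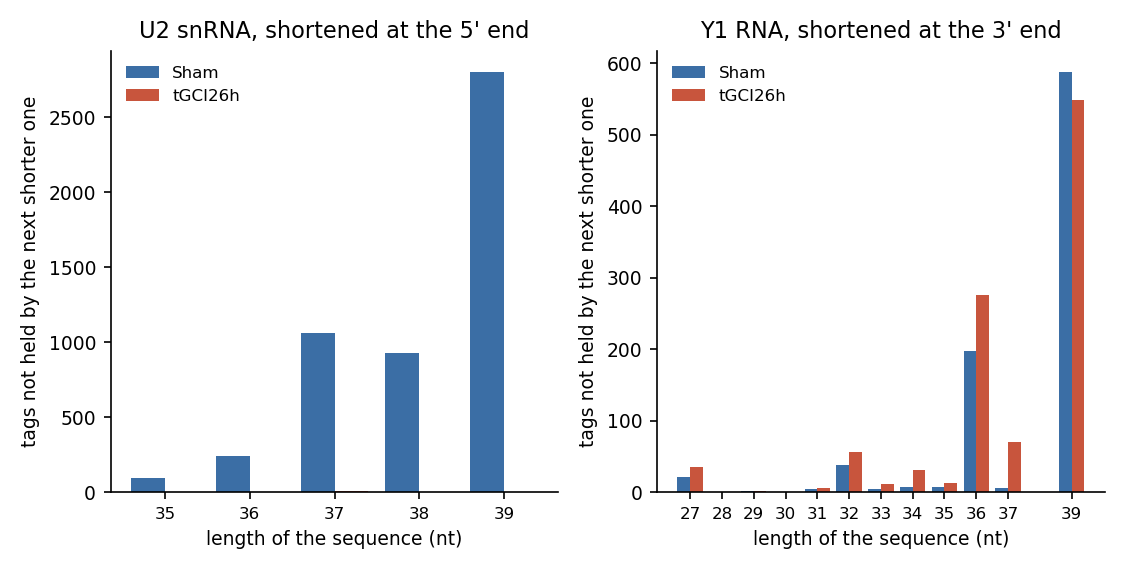
Tags by difference along the nested series of U2 snRNA (shortened from the 5′ end) and of the Y1 RNA 5′ part (shortened from the 3′ end), with the length of the sequence in nt on the x axis and the tags not held by the next shorter sequence on the y axis, Sham blue and tGCI26h red. The U2 bars are tall in Sham and near 0 in tGCI26h, while the tallest Y1 bars are at 39 and 36 nt in both and the 37-nt bar is at 6 tags in Sham and 70 in tGCI26h.

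U1 snRNA, which pairs with the 5′ splice site, showed the same kind of split. The 39-nt fragment novel_426_x3250 had 573 Sham tags and 23 tGCI26h tags, 34.8-fold lower (23.0 to 55.4), and novel_3093_x593, shifted by 1 base, had 304 and 38, 11.2-fold lower (7.96 to 16.1). In contrast novel_9449_x204, which stops 10 bases earlier, had 39 Sham tags and 82 tGCI26h tags, a ratio of 1.5 (1.02 to 2.26). At 245 CPM in Sham and 368.5 CPM in tGCI26h, it lay far below IgG, where it had 2146 tags or 3208.5 CPM. Its ratio exceeded that of novel_426_x3250 51.7-fold (28.8 to 96.2). Of 11 measured U1 sequences 8 were lower and 1 was higher, namely novel_12117_x162, not listed in Sham and with 28 tags in tGCI26h (24 and 109 in the authors' normalized table). Summed by 3′ end, the ends at least 2 bases short of novel_426_x3250 had 113 and 157 tags and the others 965 and 64, a ratio of ratios of 20.9 (14.6 to 30.2). By share of tags over all sequences U1 stood at 0.939% of IgG tags and 0.716% of Sham tags, with 0.102% in tGCI26h and 0.0464% in HPC0h. The U1 fragments had 606 tags in Sham and 23 in tGCI26h over the non-overlapping set.

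The remaining snRNAs had few tags. U6 snRNA, part of the catalytic core of the spliceosome, had 1 measured sequence, novel_5842_x319, with 22 Sham tags and 8 tGCI26h tags, 3.84-fold lower (1.65 to 9.98). U4 snRNA, the partner of U6, had 1 as well, novel_2461_x736, with 5 and 17 tags and a ratio of 2.43 (0.86 to 8.43), whose interval held 1. Over all 42 measured snRNA sequences 29 were lower and 1 was higher, against 13.9% and 27.2% of all measured sequences.

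Transfer RNAs carry amino acids to the ribosome, and their 5′ fragments were not displaced together. The 35-nt tRNA-Glu (CTC) fragment novel_2845_x640 had 12597 Sham tags and 19284 tGCI26h tags, a ratio of 1.10 (1.07 to 1.12), and none of the 6 measured sequences of its family was called (ratios 0.96 to 1.10). By contrast the tRNA-Gly fragment rno_piR_005567, the most abundant tag with an rno_piR name, had 5888 Sham tags and 3201 tGCI26h tags, 2.57-fold lower (2.46 to 2.69). The tRNA-His fragment novel_12093_x163 had 722 and 114 tags, 8.85-fold lower (7.26 to 10.9). Each of the 4 tRNA-His sequences measured was lower, although they overlap, and the 3 shorter ones were between 4.30-fold and 4.68-fold lower. HPC0h, with 0.0863% of tags from tRNA-His, was as low as tGCI26h, with 0.0849%. The tRNA-Lys (CTT) fragment rno_piR_005598 went the other way, with 42 Sham tags and 333 tGCI26h tags, 5.67-fold higher (4.11 to 8.02). Its near relative rno_piR_005595, of tRNA-Lys (TTT), had 29 and 83 tags, a ratio of 2.05 (1.33 to 3.24), below that of the CTT fragment by a ratio of ratios of 2.76 (1.56 to 4.85). With TMM factors the ratio of rno_piR_005595 would fall below 2. The 30-nt rno_piR_011541 of the same family had 31 and 84 tags, a ratio of 1.94 (1.27 to 3.03), and was not called. Of 5 measured tRNA-Lys sequences 2 were higher and 0 lower.

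Set against tRNA-Gly, the ratio of the tRNA-Lys (CTT) fragment was 14.6-fold larger (10.5 to 20.7), with both fragments 31 nt long. The tRNA-Val fragment rno_piR_005901 had 444 Sham tags and 393 tGCI26h tags, a ratio of 0.63 (0.55 to 0.73), which did not reach the call. Nor did the initiator tRNA-Met fragment rno_piR_000194, with 28 and 60 tags and a ratio of 1.53 (0.96 to 2.49). Of the tRNA-Glu (TTC) family 3 of 8 measured sequences were lower; its most abundant one, novel_1297_x1295, had 65 and 125 tags and a ratio of 1.38 (1.01 to 1.89). Over all cytosolic tRNAs, 14 of 58 measured sequences were higher and 9 lower, close to the background shares.

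The tRNA-Asp fragments come from the 3′ part of the molecule and differed by a few bases at the 3′ end. The 36-nt novel_19801_x107 had 113 Sham tags and 123 tGCI26h tags, a ratio of 0.78 (0.60 to 1.02). Shortened by 2 bases at the 3′ end, the same sequence is novel_9909_x195, with 2 Sham tags and 63 tGCI26h tags, a ratio of 22.5 (5.99 to 190). Since the shorter one lies inside the longer, 111 of the 113 Sham tags but 60 of the 123 tGCI26h tags were not of the short form, which made it 1.77% of the tags in Sham and 51.2% in tGCI26h. The ratio of ratios for these separate tags was 57.4 (14.4 to 501). A 38-nt sequence with the short end, novel_7169_x265, had 5 and 144 tags, 20.6-fold higher (8.63 to 64.4). Ending 1 base short, novel_14794_x136 had 19 Sham tags and 127 tGCI26h tags, a ratio of 4.78 (2.94 to 8.21). All 9 higher tRNA-Asp sequences, of 15 measured, ended before the last base of novel_19801_x107. In HPC0h novel_9909_x195 had 49 of the 80 tags of novel_19801_x107, and in IgG 8 of 25. Summed by 3′ end, the sequences ending 2 bases short had 16 and 389 tags and those with the lead's end 313 and 317, a ratio of ratios of 23.9 (14.1 to 43.3).

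Mitochondrial tRNAs serve translation inside the organelle, and 3 of their 10 measured sequences were higher and 2 lower, near the background shares. For mitochondrial tRNA-Gln, novel_1504_x1146 had 135 Sham tags and 517 tGCI26h tags, 2.74-fold higher (2.26 to 3.34), and the overlapping novel_3814_x485 had 99 and 536, 3.87-fold higher (3.12 to 4.85). The 5′ part was less displaced: novel_5263_x355 had 77 and 195 tags, a ratio of 1.81 (1.39 to 2.39). Within the same RNA novel_4321_x431 was lower, with 40 Sham tags and 8 tGCI26h tags, a fold of 6.99 (3.23 to 17.3), and so was novel_5554_x336, with 22 and 5. The mitochondrial tRNA-Leu fragment novel_20487_x104 was not listed in Sham, had 42 tags in tGCI26h and was not listed in HPC0h or IgG either. Its values in the authors' normalized table were 5 in Sham and 166 in tGCI26h. Mitochondrial 16S rRNA gave 4 higher and 3 lower of 14 measured sequences.

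Ribosomal RNA fragments, the bulk of all tags, differed by region and not as a block. Over all sequences the 28S share was 0.857 times that in IgG in Sham and 0.893 times in tGCI26h. For 18S these values were 0.792 and 1.06. The 28S fragments as a sum were thus not above the IgG control in either library. Of 450 measured 18S sequences, which derive from the small subunit, 179 were higher and 38 lower, with a median ratio of 1.70. In the non-overlapping set 17 of 45 18S sequences (37.8%) were higher and 5 lower, with a median ratio of 1.32, near the 1.31 of the whole set. For 28S rRNA, of the large subunit, 132 of 639 were higher and 83 lower, with a median of 1.13, and in the non-overlapping set 21 of 77 (27.3%) were higher and 6 lower, with a median of 1.53. The order of the 18S and 28S medians thus turned between the sets. Many of these sequences overlap, so the counts are not of independent fragments.

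Neighbouring 18S fragments went opposite ways. The 39-nt novel_3177_x580 had 135 Sham tags and 744 tGCI26h tags, 3.94-fold higher (3.28 to 4.77), while novel_2167_x831, which begins inside it and runs further downstream, had 135 in Sham and 2 in tGCI26h, 94.3-fold lower (25.6 to 787). Another 18S sequence, novel_6066_x308, had 105 and 2 tags, 73.4-fold lower (19.8 to 614). At the other extreme, novel_14927_x135 had 2 Sham tags and 98 tGCI26h tags, a ratio of 35.1 (9.45 to 294). It belongs to the family of novel_12320_x160, whose lead had 1427 and 2481 tags and a ratio of 1.24 (1.17 to 1.33). Large ratios thus sat beside abundant fragments of the same family that differed little. The 18S sequence novel_13901_x144 was not listed in Sham and had 205 tags in tGCI26h, with normalized values of 3 and 792, the most tags of any sequence not listed in Sham.

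In 28S rRNA the fragment from the 3′ end, novel_14_x71274, had 393 Sham tags and 1174 tGCI26h tags, 2.14-fold higher (1.91 to 2.40). Its ratio was 2.18 times (1.94 to 2.45) that of the 5′-end fragment novel_88_x12235. The family of novel_88_x12235 had 3 higher and 13 lower of 106 measured sequences. Also higher was novel_15140_x134, with 1029 and 2902 tags and a ratio of 2.02 (1.88 to 2.17). With TMM factors the ratios of novel_14_x71274 and novel_15140_x134 would both fall below 2. A single overlapping relative of novel_15140_x134, novel_1045_x1556, had 2 Sham tags and 74 tGCI26h tags, a ratio of 26.5 (7.08 to 223). The 28S sequence novel_12211_x161 had 2 and 50 tags, with 5 in HPC0h and 7 in IgG. Not listed in Sham were novel_7068_x268, with 176 tags in tGCI26h, and novel_17472_x118, with 125. The reverse held for novel_928_x1719, with 21 tags in Sham and none listed in tGCI26h.

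5S rRNA, the small RNA of the large subunit, differed by region. The 3′ fragment novel_11003_x177 had 3210 Sham tags and 4401 tGCI26h tags, a ratio of 0.98 (0.94 to 1.03). Of 9 measured sequences from the middle 6 were lower and 0 higher, against 0 called of 6 in the 5′ part and 2 higher and 1 lower of 5 in the 3′ part. The tags of the 5′ part summed to a ratio of 0.73 (0.61 to 0.87). Across the 32 families with at least 0.5% of tags in either library, family ratios ran from 0.049 to 2.21 with a median of 1.11, and 4 were higher and 4 lower. Over all 169 measured families 48 (28.4%) were higher and 22 (13%) lower.

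Small cytoplasmic RNAs split as well. The 5′ part of Y1 RNA, a partner of the Ro60 protein, had 878 tags in Sham and 1049 in tGCI26h at its longest sequence, novel_14710_x137, a ratio of 0.85 (0.78 to 0.94). None of the 12 measured sequences of that family was called. Read by difference, 67.0% of its tags in Sham and 52.2% in tGCI26h were held by the 39-nt sequence alone, and 22.6% and 26.3% stopped at the 36-nt form. The 37-nt form differed most in proportion, with 0.683% in Sham and 6.67% in tGCI26h. The 7SL fragments, from the RNA of the signal recognition particle, gave 3 lower of 4 measured sequences and summed to 137 and 96 tags. In the non-overlapping set 7SL had 75 and 76 tags, a ratio of 0.75 (0.54 to 1.05), so its interval held 1 there. Over all sequences its ratio was 0.50, just short of a call, and 0.43 with TMM factors, which is a call.

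BC1 RNA, a rodent neuronal RNA that represses translation in dendrites, was higher. Its fragment novel_11388_x172 had 20 Sham tags and 61 tGCI26h tags, a ratio of 2.18 (1.30 to 3.82), which would fall below 2 with TMM factors. All 4 measured BC1 sequences, which overlap, were higher, up to novel_4182_x444 with 5 and 34 tags and a ratio of 4.87 (1.89 to 15.9). The 4.5SI RNA, a rodent nuclear RNA related to B2 repeats and not told apart from them here, was higher at its 5′ end, where novel_9037_x213 had 13 Sham tags and 108 tGCI26h tags, a ratio of 5.94 (3.33 to 11.5). Its 4 measured sequences were all higher, but novel_15116_x134 and novel_15816_x129, of the family of novel_9037_x213, were not listed in Sham. The 3′ end did not share this: novel_9631_x200 had 4 Sham tags and 3 tGCI26h tags. Its ratio was 0.54 (0.079 to 3.17), and it lay below the minimum. The 4.5SH RNA, related to B1 repeats, did not follow it: novel_3861_x480 of the 5′ part had 48 and 115 tags, a ratio of 1.71 (1.21 to 2.45), and novel_21037_x102 of the 3′ part had 78 and 42, 2.60-fold lower (1.76 to 3.87).

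Summed by RNA, 6 of 28 measured classes (21.4%) were higher and 5 (17.9%) lower. The lower ones were U2, U1, U6, tRNA-His and tRNA-Gly. The tRNA-Gly call rests on rno_piR_005567, which held 5888 of the 5900 Sham tags and 3201 of the 3254 tGCI26h tags of the class. Over the few tags left the ratio was 3.16. The higher ones were 4.5SI or B2 RNA, tRNA-Lys, BC1, mitochondrial tRNA-Gln, mitochondrial tRNA-Leu and let-7b. With TMM factors mitochondrial tRNA-Gln and let-7b fell below a ratio of 2. Over the non-overlapping set 6 were higher and 6 lower; the one added was tRNA-Gln, with 73 and 48 tags and a ratio of 0.49 (0.33 to 0.71). The sums moved most for U2, whose ratio was 0.052 over all sequences and 0.0096 over the non-overlapping set, for U1 (0.14 and 0.028) and for tRNA-Asp (1.9 and 0.83). The non-overlapping set keeps the most abundant of overlapping sequences, so its class ratios depend on that choice.

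**Figure D4:**
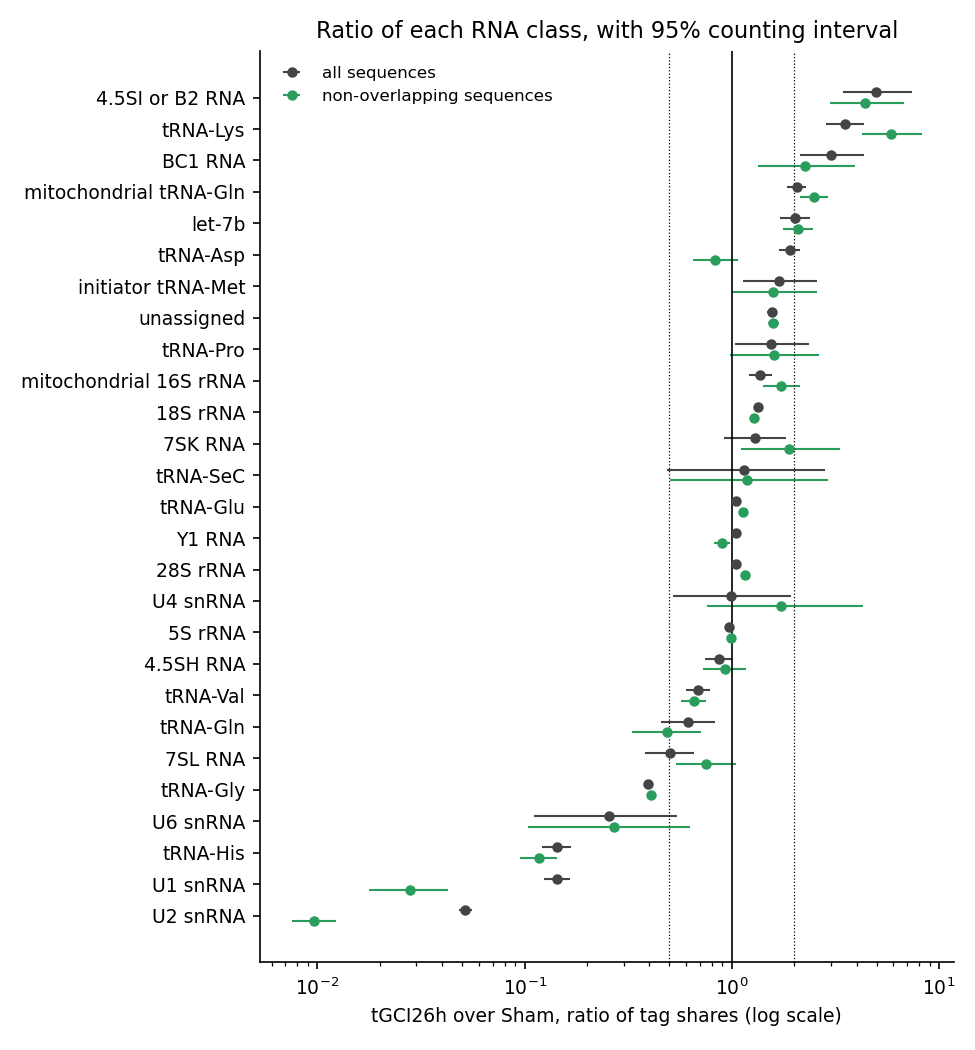
Ratio of tag shares, tGCI26h over Sham (x axis, log scale), of each RNA class listed in both libraries, over all sequences (grey) and over the non-overlapping set (green), with 95% counting intervals as bars. The solid line marks a ratio of 1 and the dotted lines 0.5 and 2; U2 and U1 lie furthest to the left, 4.5SI and tRNA-Lys furthest to the right, and tRNA-Asp changes side between the sums.

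The miRNA let-7b, of the let-7 family that restrains growth and stemness genes, had 195 Sham tags and 551 tGCI26h tags, a ratio of 2.02 (1.71 to 2.39). Both lie below IgG, where it had 19772 tags. Of the 126 sequences with rno_piR names 67 were listed in either library and 20 were measured, with 4 higher and 1 lower. Most of these measured ones were tRNA fragments: 5 of tRNA-Lys, 3 of tRNA-Gly, 3 of tRNA-Val, 2 of initiator tRNA-Met and 1 of tRNA-SeC. Without rno_piR_005567 the rno_piR sequences had 844 Sham tags and 1547 tGCI26h tags, a ratio of 1.31 (1.21 to 1.43).

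Length and first base shifted by small amounts. Sequences of 39 nt held 44.9% of Sham tags and 48.1% of tGCI26h tags, a difference of 3.23 percentage points, but a long sequence also holds the tags of shorter ones. Those of 29 to 32 nt held 5.15% and 3.26%, a difference of -1.89 points, and the fragment rno_piR_005567 is 31 nt long. Tags beginning with T, the U of RNA, held 29.2% and 27.2%, a difference of -2.0 points. Without tRNA-Glu and U2 this difference turned, with 14.5% in Sham and 15.9% in tGCI26h. Of 24 measured sequences of 25 to 28 nt, the length of piRNAs bound by Piwil2 in mouse testis, 11 were higher and 0 lower. That is 45.8% higher, against 27.2% of all measured sequences, and several of them lie inside one another. Of the 11, 4 were 18S rRNA fragments not listed in Sham and 1 was a 28S fragment. Whether any is a piRNA was not tested. All listed sequences of 25 to 28 nt held 0.340% of tags in Sham and 0.736% in tGCI26h.

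Sequences of families with no RNA name were called at shares near the background. Of 89 measured ones 24 were higher and 12 lower, and they summed to 2121 tags in Sham and 4616 in tGCI26h. The sequence novel_15527_x131 had 166 tags in Sham and 2 in tGCI26h, with 74 in HPC0h and 55 in IgG. In the other direction novel_5644_x331 was not listed in Sham and had 112 tags in tGCI26h, and novel_11595_x169 had 2 and 67. Whether these sequences come from the rat was not tested.

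Of the higher sequences 102 were not listed in Sham, and of the lower ones 24 were not listed in tGCI26h. These were all the measured sequences not listed in one library, because 10 tags against a blank are enough for the call. The minimum of 10 tags is also reached more easily in tGCI26h, the library with more tags. A blank was not proof that no read existed: 86 of the 102 had a value for Sham in the authors' normalized table, and in 84 of these the tGCI26h value was at least 2-fold above it. For 22 of the 24 the reverse comparison held, also by at least 2-fold in 22. Over all called sequences the authors' normalized values differed at least 2-fold in the same direction for 329 of the 372 higher and 169 of the 190 lower, and in the opposite direction for 0 of either. Those values come from the same libraries, and the sequences were chosen on their raw ratio. The shared direction is therefore no separate support for the calls.

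The called sequences can be set against the libraries not used to call them. The 372 higher sequences made up 4.89% of Sham tags and 16.5% of tGCI26h tags, a difference the call fixes, and made up 11.8% of IgG and 9.09% of HPC0h tags. For the 190 lower sequences these shares were 18.2% and 3.85%, with 5.17% of IgG and 5.13% of HPC0h tags. Because the sets are extremes of Sham and tGCI26h, another library can lie between these by that choice alone, and nothing is read from its place. In IgG 16 measured sequences were not listed, of which 7 were higher and 4 lower. For U2 over the non-overlapping set, the share was 26.1 times that in IgG in Sham and 0.25 times in tGCI26h. For tRNA-Lys those values were 1.33 and 7.82, for tRNA-Asp 17.7 and 14.7 and for BC1 1.26 and 2.84. The set keeps the most abundant of overlapping sequences, so these values depend on that choice. Over all sequences they were 10.7 and 0.55 for U2 and 2.15 and 7.55 for tRNA-Lys. For tRNA-Asp they were 9.19 and 17.5, which turns the order of the libraries, and for BC1 1.13 and 3.41. The IgG library was made in the same way, and which animals it came from is not stated.

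**Figure D5:**
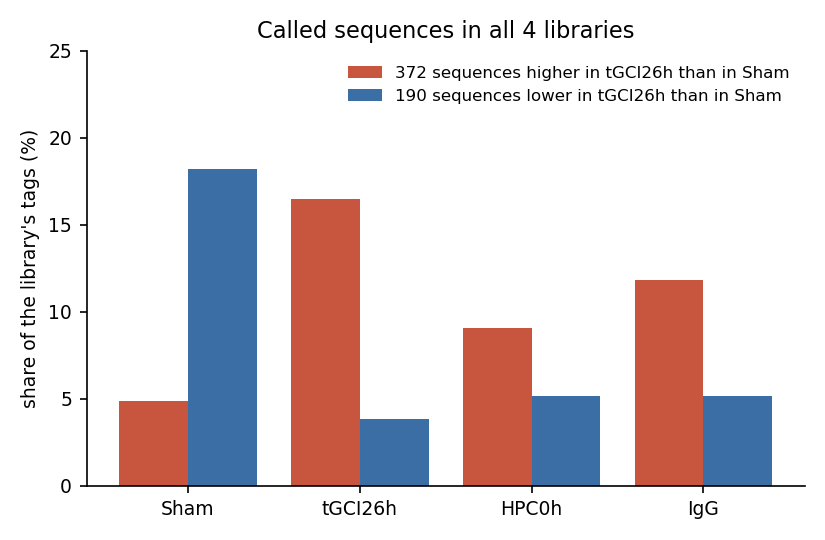
Share of each library's tags (percent, y axis from 0) held by the 372 sequences higher and the 190 lower in tGCI26h than in Sham, in all 4 libraries. The sets were chosen on Sham and tGCI26h, so those bars differ by construction; in HPC0h and IgG the higher set holds 9.09% and 11.8% and the lower set 5.13% and 5.17%.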

How the data were processed

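Small RNA recovered with Piwil2 was measured in 1 Sham and 1 tGCI26h library, with HPC0h and IgG as reference values. Per the file headers, the values of the first deposited table are raw tag counts, 1 row a sequence. A second deposited table holds the authors' normalized values, treated as a score because no source used here gives their scaling. Novoalign 3.02.12 and cutadapt 1.9.3 appear in the submitters' processing notes, without a stated role. The build of the genome, if any, is not given in sources used here. Per the labels' protocols, amplicons near the size of piRNAs were selected before sequencing, which limits the lengths that can be seen. The columns of both libraries were matched by partial name.

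Blank cells were taken as 0 and counts divided by column totals (159215 tags in Sham, 222511 in tGCI26h). These are totals of listed sequences, not of reads. Ratios carry exact Clopper-Pearson intervals at 95%, ratios of ratios exact conditional intervals, and a call needs 10 tags, a ratio of 2 and an interval without 1. Sequences sharing 20 bases were joined into 307 families, 115 of them named by hand from general knowledge. The non-overlapping set takes sequences by falling tags over both libraries and skips any that shares 20 bases with one already taken. Nothing shows whether the libraries stand for separate animals, and no test between groups was made.

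Sequences were named by rule: the 10 with most tags in each library; the 10 largest called ratios each way; the 5 with most tags in one library and not listed in the other; leads of families with at least 0.5% of tags; the 5 families with the largest ratios each way among those with 50 tags; and the 5 most abundant rno_piR sequences. Members, lists and rules were chosen with earlier results of these data known, and sequences outside the rule were chosen after their values were seen. Alternatives were TMM factors (edgeR 4.0.16), median-of-ratios factors, other count and ratio limits, family sums, and the normalized table. Steps ran in Python 3.11.15 with numpy 2.4.6, pandas 2.3.3, scipy 1.17.1 and matplotlib 3.10.9, and in R 4.3.3. Only the call and the ratio with its interval were tested on simulated data. Those data were independent Poisson counts without nested tags, so they do not match the counts here in that respect.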

Additional observations from a re-analysis of the deposited data

Results flagged for a closer look

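No comparison above used the 762 sequences found in the authors' normalized table alone. Among these, 18 had a normalized Sham value of at least 10 and at least 2-fold above that in IgG, and 12 had such a value in tGCI26h. Of the 37 that reached 10 in Sham or tGCI26h, 9 were at least 2-fold higher in tGCI26h and 15 at least 2-fold higher in Sham. They were looked at because they lie outside the main measurement. The 18 and 12 were picked for lying above IgG, so that place is the choice and not a finding. How many of the 762 lay below IgG is not given here. The 762 sequences have no raw count, so no counting interval can be given.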

How the results depend on the processing

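The 372 higher and 190 lower sequences became 165 and 69 at a minimum of 50 tags, 229 and 109 at a ratio of 4, 48 and 22 as family sums, 61 and 30 in the non-overlapping set and 701 and 391 in the normalized table without intervals. They were 302 and 227 with TMM or median-of-ratios factors. The count of called families, 70, became 42 without each family's most abundant sequence and 108 in the normalized table; shared calls were not counted. Classes called numbered between 9 and 12 under the 6 alternatives run for classes (scaling, totals without U2, the most abundant sequence left out, the non-overlapping set and the normalized table). Without rno_piR_005567 the tRNA-Gly class ratio reversed to 3.16 and its family to 5.72. Few tags were left for either, as that sequence held 5888 of the 5890 Sham tags of its family. The TMM shift put mitochondrial tRNA-Gln and let-7b below a ratio of 2 and called 7SL lower at 0.433. The 3.23-point difference at 39 nt reversed to -1.77 when listed sequences were counted in place of tags. At 29 to 32 nt -1.89 became -3.01 without the 28S 5′-end family and 1.65 over listed sequences, and the T-first difference became -3.93 and -0.54. Without tRNA-Glu and U2, chosen after the data were seen, it reversed to 1.35, and the 39-nt and 29 to 32 nt differences became 4.36 and -2.66. One sequence per end, chosen after the data were seen, moved the ratios of ratios to 530.4 for U2, 51.7 for U1 and 57.4 for tRNA-Asp. The planned count over IgG at 2-fold and 4-fold was not run, because IgG ratios share their libraries with the call. No paired analysis was possible because each group has 1 library. Precision is limited by 159215 and 222511 listed tags, in which nested tags are counted more than once.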
